A study of Mus musculus with 22 samples.

Results

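The 8 genes described here encode transcription factors that set or keep the identity of nephron segments: Hnf4a, Hnf4g, Lhx1, Esrrb, Tfap2b, Pax2, Pax8, and Sox9. They were chosen by gene symbol, and all 8 were found among the 32858 genes listed and passed the filter on low counts. Kidneys of 22 male C57Bl6/J mice aged 8 to 10 weeks were profiled by RNA-Seq, 1 library per mouse. Vehicle-treated mice (n = 5) received a carrier of DMSO, cremophor, and saline. KW6002 (n = 6) is istradefylline, an adenosine receptor antagonist, and was injected i.p. at 3 mg/kg every day from day -5 to day 7. Cisplatin (n = 5), a platinum chemotherapeutic that injures the renal tubule, was injected i.p. at 3 mg/kg once a day for 6 doses, and kidneys were taken 72 hours after the last dose. The co-treated mice (n = 6) received cisplatin plus KW6002 at these doses. The labels name no genetic modification, and RNA came from kidney tissue without separation of cell types. Library totals were 26471762 counts at the lowest and 40510754 at the highest. All 5 cisplatin and all 6 co-treated mice carry numbers in the 500s, while 3 of 5 vehicle and 3 of 6 KW6002 mice carry numbers in the 300s, so comparisons with vehicle are partly confounded with the number series. Levels are given as CPM, the usual unit of a gene's count relative to the library total, here with totals scaled by TMM, a normalization that assumes most genes do not change. Proximal tubule markers were abundant in all vehicle kidneys (12 genes, 22291 to 23977 CPM in sum), and adrenal cortex markers stood out in co-treated replicate 6 (83.4 CPM in sum).

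A nephron is a single epithelial tube divided into proximal tubule, loop of Henle, and distal tubule, and it drains into a collecting duct. Pax2, Pax8, and Lhx1 specify and build this epithelium in the embryo, and others of these factors hold the program of 1 segment in the adult, as HNF4A does in the proximal tubule. Tubular cells that survive an injury can lower segment genes and switch on factors of early development, of which Sox9 is the best known.

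Hnf4a and Hnf4g are paralogs, as are Pax2 and Pax8, so the first point was whether reads of 50 bases could tell them apart. No 50-base stretch of any annotated transcript of Hnf4a (4773 stretches), Hnf4g, Lhx1, Pax2, Sox9, or Esrrb was also found in a transcript of another gene in GENCODE M21. The longest stretch that transcripts of both genes of a pair share is printed here because it is the place where the pairs are hardest to separate. It was 17 bases in exon 6 for the HNF4 pair, at chr2:163562549-163562565 (+) in Hnf4a and chr3:3648064-3648080 (+) in Hnf4g of mm10.
Hnf4a and Hnf4g: catctgctgcttggagc
For the PAX pair it was 27 bases that run across a splice junction, between chr19:44761039 and 44761709 (+) in Pax2 and between chr2:24443116 and 24444570 (-) in Pax8.
Pax2 and Pax8: ggcaggtactacgagactggcagcatc
Both stretches are shorter than a read. Tfap2b shared 2 of 6331 stretches with other genes, and Pax8 shared 276 of 6237 (4.43%) with Gm13415, an overlapping transcript of the opposite strand. Gm13415 had 2 to 44 counts per library against 1837 or more for Pax8. By group it had 2 to 4 counts in vehicle and in KW6002, 17 to 44 in cisplatin, and 2 to 10 in co-treated kidneys. Whether strand was used in counting is not given in the sources used here, so reads of Pax8 and Gm13415, which share 367 exon bases, may not be fully separated. Hnf4a and its antisense gene Hnf4aos overlap but share 0 exon bases.

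Cisplatin changed 7 of the 8 factors at an adjusted p below 0.05. For 6 of them the groups did not overlap, as was the case for 55.3% of all genes tested. Sox9 and Pax8 were higher, and Lhx1, Tfap2b, Hnf4g, Hnf4a, and Esrrb were lower. The 7 of 8 have to be read against a background in which 70.5% of the 17131 genes tested passed, 34.6% higher and 35.9% lower. The median log2 fold change of the factors was -0.58, beside -0.01 for all genes tested. At an adjusted p below 0.01 and a change beyond 1 on the log2 scale, which 24.1% of genes passed, Sox9, Lhx1, and Tfap2b were called. With KW6002 added to cisplatin, 6 of 8 differed from cisplatin alone. Hnf4a, Tfap2b, Pax2, Lhx1, and Esrrb were higher and Sox9 was lower, with 55.8% of all genes passing, 28.6% higher and 27.2% lower. Adjusted p-values here and in the paragraphs that follow are from edgeR's quasi-likelihood test with Benjamini-Hochberg adjustment over all genes tested. Comparisons that use the same vehicle or cisplatin libraries are not independent of each other.

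**Figure D1:**
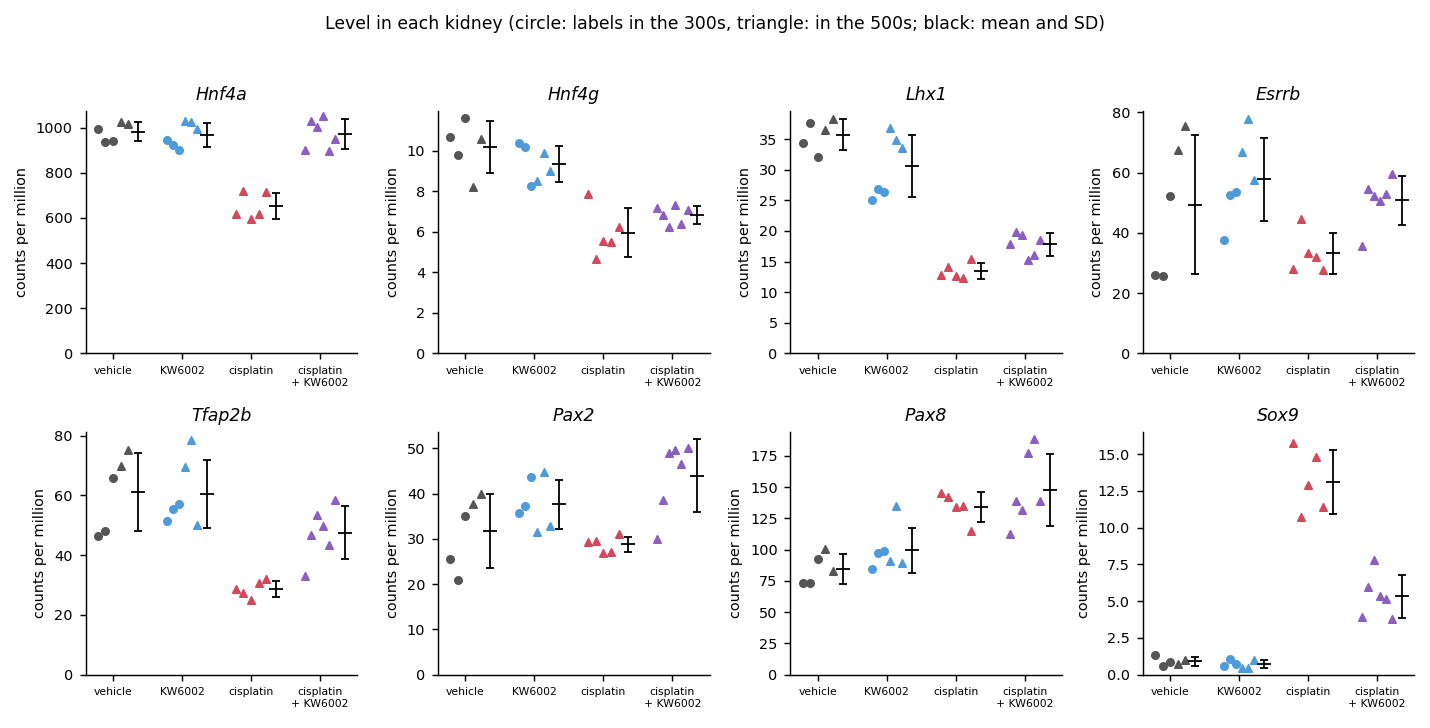
Level of each factor in each of the 22 kidneys, in CPM on an axis that starts at 0, by treatment group, with the group mean and SD in black. Hnf4a of the co-treated kidneys (896 to 1051 CPM) overlaps with vehicle, Sox9 is near 0 without cisplatin, and circles mark mice numbered in the 300s and triangles those in the 500s.

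Hnf4a (ENSMUSG00000017950, chr2:163506808-163572910, +) encodes the nuclear receptor that drives transporter and metabolic genes of the proximal tubule. Its level in the 5 vehicle kidneys was 994, 935, 943, 1025, and 1015 CPM, which is 982 ± 41.4 (SD). In the 5 cisplatin kidneys it was 618, 720.1, 595, 618, and 714 CPM, all below every vehicle kidney. Co-treated kidneys ran from 896 through a median of 976 to 1051 CPM, all above every cisplatin kidney and overlapping with vehicle kidneys. Cisplatin lowered Hnf4a by a log2 fold change of -0.59 (SE 0.06, adjusted p = 2.81e-08 by edgeR). Against cisplatin alone, co-treatment gave 0.57 (SE 0.06, adjusted p = 7.13e-08 by edgeR). Co-treated and vehicle kidneys differed by -0.02 with a 95% interval of -0.14 to 0.10, and did not pass the test (adjusted p = 0.841 by edgeR). This depends on the scaling, since library size alone, which lifted the median gene by 0.16 in that comparison, gave 0.14 (adjusted p = 0.0337 by edgeR). Hnf4a also differed by number series. Vehicle kidneys had 935 to 994 CPM in the 300s and 1015 to 1025 CPM in the 500s. KW6002 kidneys had 900.5 to 945 and 992 to 1028 CPM. Within the 500s, cisplatin gave -0.65 and co-treatment -0.07 against vehicle (adjusted p = 4.25e-06 and 0.523 by edgeR).

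The change of Hnf4a was small beside that of the genes that mark its segment. Each of 12 proximal tubule markers fell with cisplatin, with a median log2 fold change of -2.92, beside 35.9% of all genes lower. Their summed level had a median of 23313 CPM in vehicle kidneys, 5115 CPM in cisplatin kidneys, and 10687 CPM in co-treated kidneys. The log2 ratio of Hnf4a to these markers was -4.57 ± 0.06 (SD, n = 5) in vehicle kidneys, -3.03 ± 0.15 (n = 5) with cisplatin, and -3.57 ± 0.28 (n = 6) with both drugs. In the co-treated kidneys Hnf4a overlapped with the vehicle range while the markers summed to less than in any vehicle kidney, 10100 to 14770 CPM against 22291 to 23977 CPM. In RNA from whole tissue, fewer cells of a type and less RNA per cell cannot be told apart.

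**Figure D2:**
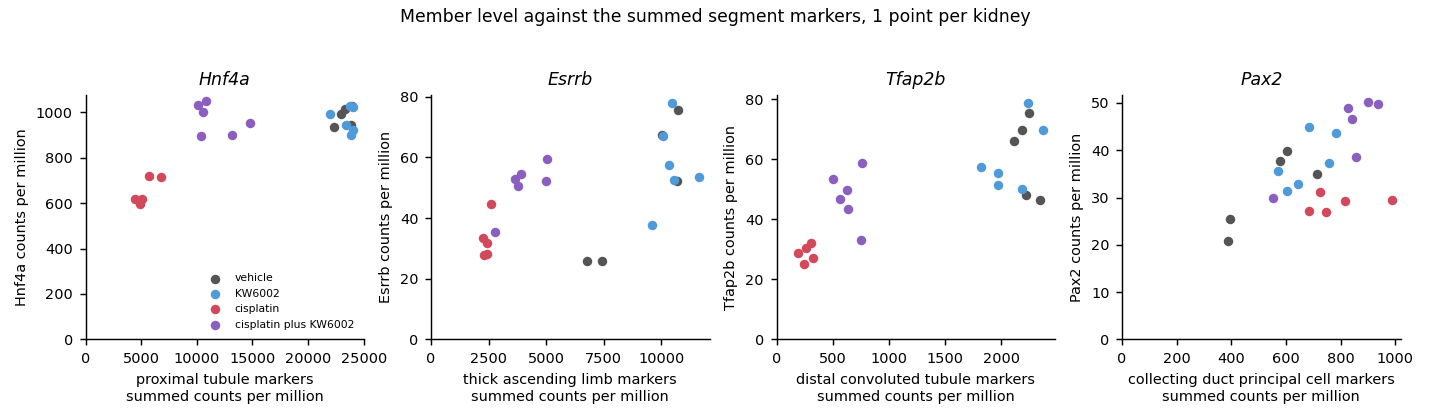
Each point is 1 kidney, with the summed level of a segment's marker genes on the horizontal axis and the level of 1 factor on the vertical axis, both in CPM from 0. The Hnf4a range of co-treated kidneys overlaps with that of vehicle kidneys at 14770 CPM or less of proximal tubule markers, and 2 vehicle kidneys lie low for Esrrb and Pax2.

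A list of 13 genes whose promoters are known to respond to HNF4A did not move in 1 direction with cisplatin. Of these, 7 fell, 4 rose, and 2 did not pass, beside 35.9% of all genes lower and 34.6% higher. Their median log2 fold change was -0.52. Ttr, the thyroxine carrier transthyretin, fell from a mean of 81.1 to 3.96 CPM and reached 10.8 CPM with co-treatment. The organic anion transporter gene Slc22a8 fell from 830.5 to 92.0 CPM and reached 438 CPM. By contrast Apoc3, an apolipoprotein, rose from 8.81 to 29.9 CPM, and Pklr, a pyruvate kinase, rose from 57.2 to 135 CPM. Co-treatment against cisplatin gave 4 higher and 3 lower of these 13, beside 28.6% and 27.2% of all genes.

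The antisense gene Hnf4aos, named here after its values were seen, parted from Hnf4a when KW6002 was added to cisplatin. It had 12.1 ± 3.74 CPM (SD, n = 5) in vehicle, 6.41 ± 1.90 (n = 5) in cisplatin, and 3.38 ± 0.876 (n = 6) in co-treated kidneys. It was lower in co-treated than in cisplatin kidneys (log2 fold change -0.92, adjusted p = 8.42e-04 by edgeR), a comparison in which Hnf4a was higher.

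Hnf4g (ENSMUSG00000017688, chr3:3508030-3658052, +), the second HNF4 receptor gene of the tubule, was far less abundant. Vehicle kidneys had 10.7, 9.83, 11.6, 8.24, and 10.6 CPM, and cisplatin kidneys 7.89, 4.65, 5.57, 5.51, and 6.26 CPM. Co-treated kidneys had 6.24 CPM at the lowest, 6.97 at the median, and 7.34 at the highest. Every cisplatin and every co-treated kidney was below every vehicle kidney, and cisplatin and co-treated kidneys overlapped. Cisplatin gave a log2 fold change of -0.77 (SE 0.11, adjusted p = 2.76e-06 by edgeR), and co-treatment against vehicle gave -0.58 (SE 0.11, adjusted p = 9.82e-05 by edgeR). Co-treatment against cisplatin gave 0.20 with a 95% interval of -0.02 to 0.41 (adjusted p = 0.135 by edgeR), which became 0.32 (adjusted p = 0.0115 by edgeR) without cisplatin replicate 1, the kidney with 7.89 CPM.

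The ratio of Hnf4g to Hnf4a counts within a library needs no normalization. On the log2 scale it was -6.60 ± 0.22 (SD, n = 5) in vehicle, -6.69 ± 0.16 (n = 6) in KW6002, -6.79 ± 0.35 (n = 5) in cisplatin, and -7.15 ± 0.12 (n = 6) in co-treated kidneys. Each co-treated kidney was below each vehicle kidney, but co-treated replicate 1 (-6.97) lay close to vehicle replicate 4 (-6.95). By a two-sided exact permutation test the difference of -0.55 gave p = 0.00433, the smallest that 6 against 5 can give, and p = 0.0317 after adjustment over 8 ratio tests. Within the 500s, which hold 2 vehicle kidneys, the difference was -0.38 and could not pass with so few. Cisplatin against vehicle differed by -0.19 (exact permutation, adjusted p = 0.444), which was -0.32 without cisplatin replicate 1 and -0.07 without cisplatin replicate 2, and co-treatment against cisplatin by -0.36 (exact permutation, adjusted p = 0.0779).

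**Figure D3:**
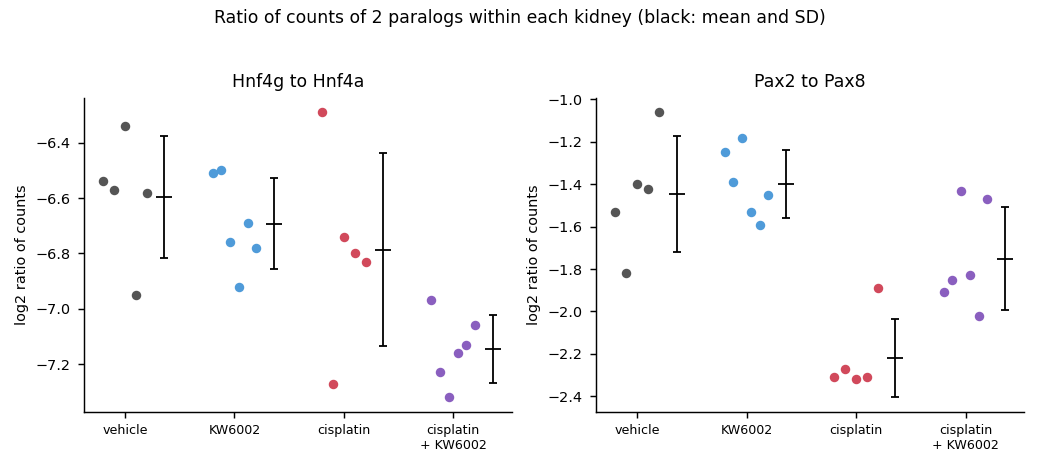
Log2 ratio of the counts of Hnf4g to Hnf4a (left) and of Pax2 to Pax8 (right) in each kidney by group, with mean and SD in black and axes that do not start at 0. The co-treated kidneys have the lowest mean for the HNF4 pair, and 4 of 5 cisplatin kidneys lie below every other kidney for the PAX pair.

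Of 8 other factors of the proximal tubule, cisplatin lowered 5 and raised 2, beside 35.9% and 34.6% of all genes. Maf, a leucine zipper factor, fell from a mean of 358 to 136 CPM and reached 285 CPM with co-treatment. Cux1 fell from 259 to 149.6 CPM and stood at 163 CPM with co-treatment. Ppara, the nuclear receptor of fatty acid oxidation, rose from 98.9 to 183 CPM and was 122 CPM in co-treated kidneys. Nr1i3, a xenobiotic receptor, rose from 1.17 to 2.13 CPM and was 3.74 CPM in co-treated kidneys. Co-treatment against cisplatin raised 5 and lowered 1 of the 8, beside 28.6% and 27.2% of all genes.

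Lhx1 (ENSMUSG00000018698, chr11:84518284-84525535, -) encodes a LIM homeodomain factor needed to form the nephron. Vehicle kidneys had 34.3, 37.6, 32.0, 36.5, and 38.2 CPM, and cisplatin kidneys 12.7, 14.1, 12.6, 12.3, and 15.4 CPM. In co-treated kidneys it ran from 15.3 (median 18.3) to 19.9 CPM. Every kidney given cisplatin, with or without KW6002, was below every vehicle kidney, and only the lowest co-treated kidney (15.25 CPM) fell within the cisplatin range. The log2 fold change was -1.41 (SE 0.10, adjusted p = 3.30e-11 by edgeR) for cisplatin against vehicle, the largest fall of the 8. Co-treatment was 0.41 above cisplatin (SE 0.10, adjusted p = 0.00136 by edgeR) and stood at 0.499 times the vehicle level (adjusted p = 9.77e-09 by edgeR).

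KW6002 kidneys ran from 25.0 to 36.8 CPM of Lhx1, and here the label numbers moved with the level. The 3 mice numbered in the 300s had 25.0, 26.9, and 26.4 CPM, and the 3 in the 500s had 36.8, 34.8, and 33.6 CPM. KW6002 against vehicle gave -0.23 (SE 0.10, adjusted p = 0.367 by edgeR) over all and -0.09 (adjusted p = 0.845 by edgeR) within the 500s. Vehicle mice of the 300s and 500s had means of 34.7 and 37.4 CPM, with ranges that overlapped. For Hnf4a and Esrrb the 500s were above the 300s without overlap, both among vehicle and among KW6002 kidneys. What the number series stands for is not given in the sources used here.

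Tfap2b (ENSMUSG00000025927, chr1:19208914-19238576, +) encodes AP-2 beta, which is required for the distal convoluted tubule. Vehicle kidneys had 46.3, 48.0, 65.9, 69.8, and 75.3 CPM. Cisplatin kidneys had 28.7, 27.2, 25.1, 30.5, and 32.0 CPM, below all of these, and co-treated kidneys ran from 33.1 (median 48.3) to 58.6 CPM, above all cisplatin kidneys. Cisplatin gave a log2 fold change of -1.09 (SE 0.15, adjusted p = 1.15e-06 by edgeR) and co-treatment 0.73 against cisplatin (SE 0.15, adjusted p = 2.11e-04 by edgeR). Against vehicle the co-treated kidneys were at -0.36 (SE 0.14, adjusted p = 0.0335 by edgeR). This call was lost with library size scaling (-0.21, adjusted p = 0.190), with only these groups in the fit (-0.37, adjusted p = 0.0534), and with any 1 of 6 libraries left out. With the label series as a covariate the difference was larger (-0.56, adjusted p = 0.00224 by edgeR), as it was within the 500s (-0.61, adjusted p = 0.0048 by edgeR).

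As with Hnf4a, the segment's marker genes fell further than the factor. The 5 distal convoluted tubule markers summed to a median of 2220 CPM in vehicle, 261 CPM in cisplatin, and 631 CPM in co-treated kidneys. The log2 ratio of Tfap2b to these markers was -5.21 ± 0.35 (SD, n = 5) in vehicle, -3.19 ± 0.31 (n = 5) in cisplatin, and -3.76 ± 0.42 (n = 6) in co-treated kidneys. Slc12a3, the thiazide-sensitive cotransporter, fell from a mean of 1597 to 66.1 CPM. Against thick ascending limb markers, the log2 ratio of Lhx1 was -7.97 ± 0.34 (SD, n = 5) in vehicle and -8.43 ± 0.27 (n = 6) in KW6002. It was -7.49 ± 0.17 (n = 5) in cisplatin and -7.80 ± 0.30 (n = 6) in co-treated kidneys. The vehicle range for Lhx1 (-8.38 to -7.63) overlapped with that of cisplatin (-7.64 to -7.21). The ratio of Esrrb was -7.65 ± 0.46 in vehicle, -7.53 ± 0.34 in KW6002, -6.20 ± 0.23 in cisplatin, and -6.30 ± 0.18 in co-treated kidneys. Pax2 against principal cell markers went the other way, with -4.08 ± 0.19 (SD, n = 5) in vehicle, -4.77 ± 0.20 (n = 5) in cisplatin, and -4.22 ± 0.13 (n = 6) in co-treated kidneys. This ratio rests on the sum of 7 markers, of which 2 were higher with cisplatin, 1 was lower, and 4 did not pass.

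Esrrb (ENSMUSG00000021255, chr12:86361117-86521628, +) encodes an orphan nuclear receptor of the estrogen-related family. It had the highest coefficient of variation of the 8 in vehicle kidneys (46.6%), with 26, 25.8, 52.2, 67.5, and 75.5 CPM. Cisplatin kidneys had 28.1, 44.6, 33.4, 31.9, and 27.8 CPM, and co-treated kidneys ran from 35.5 (median 52.5) to 59.6 CPM. The cisplatin range lies between the low and the high vehicle kidneys. Cisplatin gave a log2 fold change of -0.58 (SE 0.25, adjusted p = 0.0414 by edgeR), which did not pass with DESeq2 (adjusted p = 0.0543), with library size scaling (-0.36, adjusted p = 0.183), with only the 2 groups in the fit (adjusted p = 0.0937), or with any 1 of 7 libraries left out. Co-treatment gave 0.62 against cisplatin (SE 0.24, adjusted p = 0.0309 by edgeR), lost with any 1 of 6 libraries left out, and 0.04 against vehicle with a 95% interval of -0.42 to 0.50.

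Vehicle replicates 1 and 2, both numbered in the 300s, were the low kidneys for Esrrb, and they were also the lowest vehicle kidneys for Tfap2b, Pax2, and Pax8. In the same libraries the 7 markers of the thick ascending limb summed to 6792 and 7427 CPM against 10045 or more in other vehicle kidneys. The 7 principal cell markers of the collecting duct summed to 395 and 388 CPM against 579.8 or more, and the 6 fat markers to 749 and 1381 CPM against 339.7 or less. Co-treated replicate 1, the lowest of its group for Esrrb, Tfap2b, Pax2, and Pax8, likewise had the lowest principal cell sum of its group (554 CPM) and its highest fat sum (374 CPM). KW6002 replicate 1 showed part of this pattern, with the lowest principal cell sum (572 CPM) and the highest fat sum (595 CPM) of its group. It was the lowest of its group for Esrrb and Pax8, but not for Tfap2b or Pax2. The part of tissue composition in these results was not tested. Within the 500s, which hold 2 vehicle kidneys, cisplatin gave -1.11 for Esrrb (adjusted p = 1.89e-05 by edgeR), -1.34 for Tfap2b, and -0.44 for Pax2 (adjusted p = 0.0244 by edgeR), and co-treatment against vehicle gave -0.49 for Esrrb (adjusted p = 0.0218 by edgeR). Vehicle replicates 1 and 2 and co-treated replicate 1 were then left aside, a choice made after seeing the data. Without these 3 libraries all 8 factors and 67.3% of the genes in that fit passed for cisplatin against vehicle, with -0.97 for Esrrb and -0.39 for Pax2. Because vehicle replicates 1 and 2 were the lowest for both genes, a vehicle group without them has a higher mean by construction, here and within the 500s. For the 3 libraries left aside, the deeper falls are a description of that choice and not support for it. The 500s were set by mouse number and not by level, and all cisplatin mice are of that series, but only 2 vehicle kidneys remain.

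Among 9 other factors of the loop and distal tubule, cisplatin lowered 5 and raised 2, beside 35.9% and 34.6% of all genes. Sall3, a zinc finger factor, fell from a mean of 7.94 to 0.961 CPM and stood at 2.10 CPM with co-treatment. Irx1, an Iroquois homeobox factor, fell from 32.9 to 16.6 CPM and was 31.0 CPM with co-treatment. Tfap2a, the paralog of Tfap2b, went the other way, from 5.36 to 11.1 CPM, and was 9.19 CPM with co-treatment. Foxq1, a forkhead factor, rose from 8.96 to 18.5 CPM and stood at 37.2 CPM in co-treated kidneys.

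Pax2 (ENSMUSG00000004231, chr19:44756045-44837871, +) encodes a paired-box factor of the nephric lineage that stays on in the adult collecting duct. Vehicle kidneys had 25.5, 20.8, 35.0, 37.7, and 39.8 CPM, and cisplatin kidneys 29.3, 29.4, 26.9, 27.2, and 31.1 CPM, inside the vehicle range. Co-treated kidneys ran from 29.99 through a median of 47.7 to 50.1 CPM, and 5 of 6 were above every cisplatin kidney. It was the 1 factor that did not pass for cisplatin against vehicle (log2 fold change -0.14, 95% interval -0.45 to 0.16, adjusted p = 0.411 by edgeR). Co-treatment gave 0.61 against cisplatin (SE 0.15, adjusted p = 0.00119 by edgeR). The 0.47 against vehicle (SE 0.15, adjusted p = 0.00897 by edgeR) was 0.18 within the 500s (adjusted p = 0.365 by edgeR).

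Pax8 (ENSMUSG00000026976, chr2:24420560-24475599, -), the related factor found along the whole tubule, was higher with cisplatin. Vehicle kidneys had 73.4, 73.7, 92.2, 100.7, and 83.0 CPM, and cisplatin kidneys 145, 142, 134, 135, and 115 CPM, all above them. Co-treated kidneys ran from 113 (median 139) to 188 CPM and overlapped with cisplatin kidneys. The log2 fold change was 0.66 (SE 0.13, adjusted p = 1.11e-04 by edgeR) for cisplatin and 0.81 (SE 0.13, adjusted p = 1.15e-05 by edgeR) for co-treatment, both against vehicle. Between co-treatment and cisplatin it was 0.14 with a 95% interval of -0.10 to 0.39 (adjusted p = 0.349 by edgeR).

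The balance of the PAX pair shifted with cisplatin. The log2 ratio of Pax2 to Pax8 counts was -1.44 ± 0.27 (SD, n = 5) in vehicle, -1.40 ± 0.16 (n = 6) in KW6002, -2.22 ± 0.18 (n = 5) in cisplatin, and -1.75 ± 0.24 (n = 6) in co-treated kidneys. Cisplatin differed from vehicle by -0.77 (two-sided exact permutation p = 0.00794, the smallest that 5 against 5 can give, adjusted p = 0.0317). Without cisplatin replicate 1, 3, or 4 it was -0.75 (exact permutation, adjusted p = 0.0635). Co-treatment differed from cisplatin by 0.47 (exact permutation p = 0.013, adjusted p = 0.0346), a call lost with any 1 of 8 libraries left out, and from vehicle by -0.31 (exact permutation, adjusted p = 0.132).

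Of 10 factors of the collecting duct, 7 rose and 2 fell with cisplatin, beside 34.6% and 35.9% of all genes. Elf3, an ETS factor, rose from a mean of 19.3 to 63.0 CPM and was 35.3 CPM with co-treatment, and Elf5, of the same family, rose from 1.83 to 8.38 CPM. Grhl1, a grainyhead-like factor, rose from 1.44 to 5.06 CPM. Hmx2, a homeobox factor, fell from 11.9 to 2.85 CPM and was 6.65 CPM with co-treatment. The summed principal cell markers had medians of 579.8 CPM in vehicle, 746 CPM in cisplatin, and 849 CPM in co-treated kidneys. Gene by gene, 2 of these 7 were higher with cisplatin, 1 was lower, and 4 did not pass. Their median log2 fold change was 0.00, so the rise of the sum is not a rise of the list. The summed 6 intercalated cell markers had medians of 479, 273, and 419 CPM.

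Sox9 (ENSMUSG00000000567, chr11:112782224-112787760, +) encodes an HMG-box factor that is re-expressed by tubular cells after injury. Vehicle kidneys had 1.36, 0.602, 0.840, 0.704, and 1.01 CPM, which is 15 to 42 counts per library. In cisplatin kidneys it stood at 15.7, 10.7, 12.9, 14.8, and 11.4 CPM (402 to 591 counts). Co-treated kidneys ran from 3.75 through a median of 5.25 to 7.79 CPM, above all vehicle kidneys and below all cisplatin kidneys. The log2 fold change was 3.84 (SE 0.24, adjusted p = 3.13e-12 by edgeR) for cisplatin, a 14.3-fold increase. Co-treatment gave -1.30 against cisplatin (SE 0.19, adjusted p = 6.12e-06 by edgeR) and 2.54 against vehicle (SE 0.24, adjusted p = 6.73e-09 by edgeR), a 5.81-fold difference.

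Sox9 moved beside genes of injured tubules. Of 13 such genes, cisplatin raised 12 and lowered 0, beside 34.6% and 35.9% of all genes. Co-treatment against cisplatin lowered 10, beside 27.2% of all genes. Lcn2, which encodes NGAL, rose from a mean of 3.90 to 1240 CPM and was 289.9 CPM with co-treatment. Havcr1, which encodes KIM1, rose from 2.10 to 583 CPM and was 185 CPM with co-treatment. Krt20, a keratin, rose from 1.06 to 241 CPM and was 51.2 CPM with co-treatment. Fibroblast and pericyte markers (6 genes) rose with these genes, with a median sum of 334.5 CPM in vehicle, 1012 CPM in cisplatin, and 473.6 CPM in co-treated kidneys, and their part in the Sox9 result was not tested. The list of injured tubule genes was assembled with results of these data known, so its direction is not independent evidence.

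Most of the tested factors of kidney development were not called higher with cisplatin, unlike Sox9. Of 14, 13 were tested, and cisplatin raised 2 and lowered 6, beside 34.6% and 35.9% of all genes. Six2, the factor of embryonic nephron progenitors, had at most 2 counts in any library and was not tested. Emx1 fell from a mean of 30.7 to 6.82 CPM and was 17.4 CPM with co-treatment, Osr2 fell from 12.7 to 5.44 CPM, and Osr1 fell from 2.31 to 0.739 CPM. Foxc1 rose from 10.2 to 17.4 CPM. Among 4 podocyte factors, 2 rose and 1 fell, beside the same shares of all genes. The 1 that fell was Lmx1b, at 2.10 CPM against 4.06 CPM.

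Of 22 further paralogs of the factors, 8 had enough counts to be tested. Cisplatin raised 3 and lowered 3, beside 34.6% and 35.9% of all genes. Lhx2 and Lhx5, paralogs of Lhx1, were near 0 in vehicle kidneys, with 3 counts each over all 5 libraries. In cisplatin kidneys Lhx2 had 11 to 60 counts per library and Lhx5 had 14 to 24. In co-treated kidneys Lhx2 had 0 to 4 counts and Lhx5 had 1 to 7. Both genes are among the 3 raised, and both reached the filter's minimum of 10 counts only in cisplatin kidneys. Their rise was thus fixed in advance by the filter and is no evidence. Pax5, also near 0, had means of 0.413 CPM in vehicle, 0.364 in KW6002, 0.121 in cisplatin, and 0.218 in co-treated kidneys. It may have passed the filter only through kidneys without cisplatin, so its fall is no evidence either.

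Co-treated and vehicle kidneys differed in 6 of the 8 factors. For 4 the groups did not overlap, beside 37.5% of all genes tested. Sox9, Pax8, and Pax2 were higher, and Lhx1, Hnf4g, and Tfap2b were lower. With any 1 library left out, 5 or 6 of the 8 passed. Of all genes, 59.7% passed in this comparison, 29.8% higher and 29.9% lower. At an adjusted p below 0.01 and a change beyond 1, Sox9 was the 1 factor called here, beside 13.4% of all genes, and also the 1 called for co-treatment against cisplatin, beside 10.3%. Hnf4a and Esrrb did not pass.

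KW6002 without cisplatin changed 0 of the 8 factors by edgeR, and 0.0175% of all genes (3 of 17131) passed. Lhx1 was the 1 factor at an unadjusted p below 0.05 in that edgeR test, as were 1930 of all genes, and DESeq2 called 99 genes and none of the factors. Log2 fold changes ran from -0.37 (Sox9, 95% interval -0.92 to 0.17) to 0.24 (Pax2, -0.05 to 0.53). Hnf4a was at 969 ± 53.9 CPM (SD, n = 6) against 982 ± 41.4 (n = 5), with an interval of -0.14 to 0.10.

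**Figure D4:**
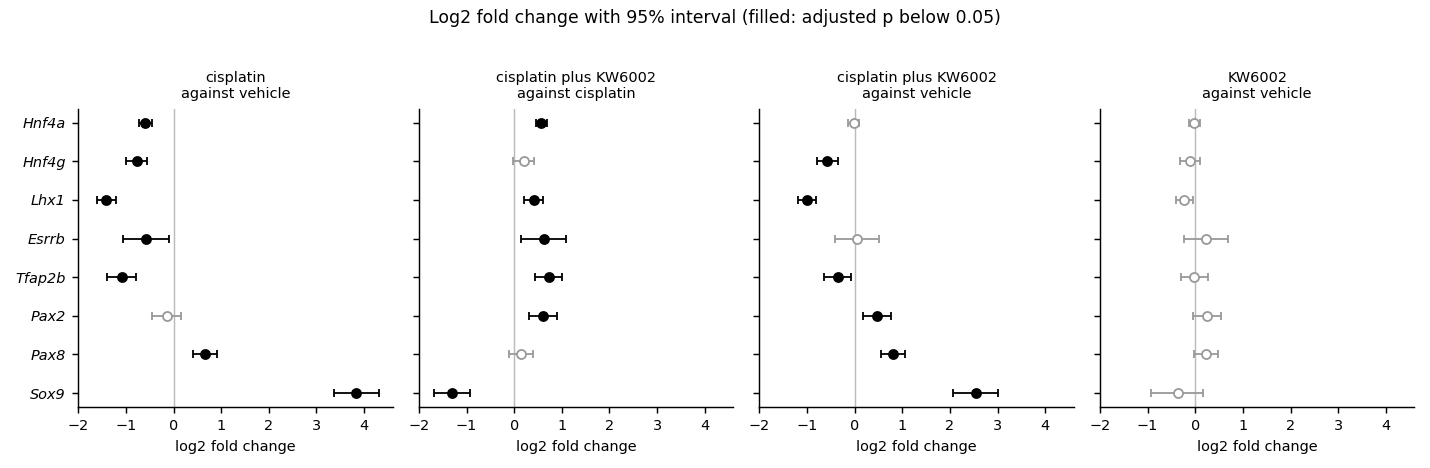
Log2 fold change of each factor, with its 95% interval as a bar, in the 4 comparisons, where filled points passed at an adjusted p below 0.05 by edgeR. Sox9 has the largest change of the 8 under cisplatin, and all 8 intervals of KW6002 against vehicle lie within 1 log2 unit of 0.

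Whether KW6002 acted differently with and without cisplatin was tested as an interaction, in which 42.7% of all genes passed, 22.8% higher and 19.9% lower. Of the factors 4 passed. The difference of the KW6002 effects was 0.59 for Hnf4a (SE 0.09, adjusted p = 1.12e-05 by edgeR), 0.63 for Lhx1 (SE 0.14, adjusted p = 7.98e-04), and 0.75 for Tfap2b (SE 0.20, adjusted p = 0.00524). Sox9 gave -0.93 (SE 0.34, adjusted p = 0.0315 by edgeR), which was lost within the 500s (-0.82, adjusted p = 0.209) and with any 1 of 7 libraries left out. Pax2 and Esrrb did not pass over all libraries and gave 0.71 and 0.70 within the 500s (adjusted p = 0.0157 and 0.0248 by edgeR).

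Levels of different genes were compared as CPM per kilobase of exon. In vehicle kidneys Hnf4a stood at 203 ± 8.58 (SD, n = 5), Pax8 followed at 14.0 (12.1 to 16.6), and Sox9 was last at 0.218 ± 0.0720. Between them lay Tfap2b (9.64), Lhx1 (8.78), Esrrb (8.17), Pax2 (5.87), and Hnf4g (3.88), and in this order the ranges of neighbours overlapped. In all 4 groups Hnf4a and Pax8 took the first 2 places, and neither range touched the next. In cisplatin kidneys Sox9 (3.17) stood above Hnf4g (2.27), with overlapping ranges, and in co-treated kidneys it was last again at 1.29.

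**Figure D5:**
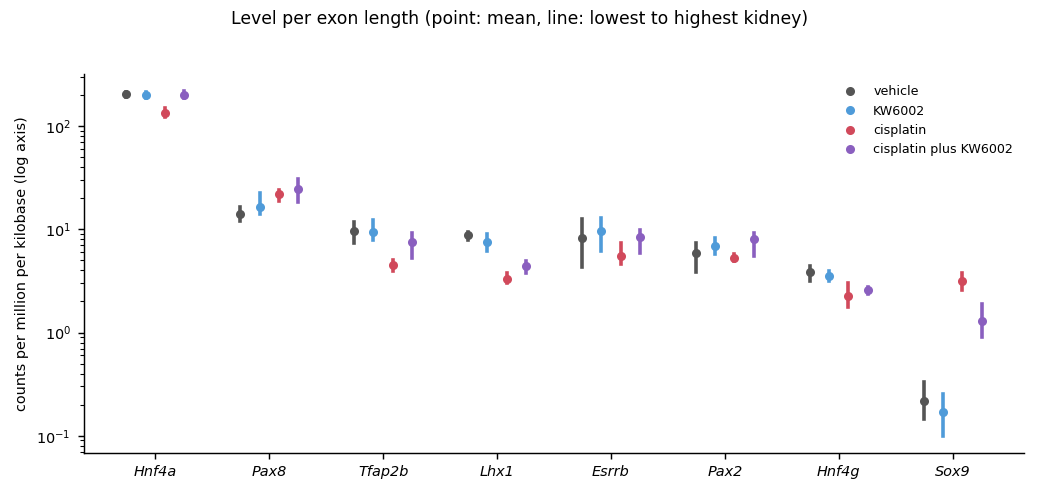
Level of each factor in CPM per kilobase of exon on a log axis, with the group mean as a point and the lowest to the highest kidney as a line. Hnf4a lies above all others in each group, and Sox9 spans the widest range between groups.

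For each factor the gene with the most similar profile over the 22 libraries was found by the root mean square difference of centred log2 CPM. The nearest genes were BC004004 for Hnf4a (0.071), Hikeshi for Hnf4g (0.128), Tmem229a for Lhx1 (0.132), and Sim1 for Tfap2b (0.158). They were Sim2 for Esrrb (0.213), Aqp6 for Pax2 (0.184), Pom121 for Pax8 (0.153), and Spp1 for Sox9 (0.362). The median gene was at 0.348 from Hnf4a and 1.76 from Sox9. Sim1, a bHLH-PAS factor, is on the list of loop and distal factors, and Spp1, which encodes osteopontin, is on the list of injured tubule genes, where it rose from a mean of 783 to 11736 CPM. Aqp6, the nearest to Pax2, is on the list of intercalated cell markers, and not on that of principal cell markers.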

How the data were processed

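Raw read counts per gene, not normalized, were deposited by the authors for 22 kidneys. The authors prepared poly(A) libraries with a stranded kit, aligned 50-base single reads to mm10 by STAR, and obtained counts from unique alignments by HTSeq 0.6.1p1. The deposited table also has 66 empty columns without a header, which were ignored. Symbols, positions, and transcripts were taken from GENCODE M21, and 34 genes without a symbol held 0.00459% of counts. Genes kept by filterByExpr (17131) were fitted with edgeR 4.0.16 in R 4.3.3: TMM, 1 mean per group, quasi-likelihood tests, and Benjamini-Hochberg adjustment. The fit was tested on simulated data. Ratios used a pseudocount of 0.5. Named genes were the 8 factors, the 3 nearest profiles of each (the first is printed), and up to 4 of each list with the largest change among those passing for cisplatin against vehicle. Genes, lists, and markers were chosen with earlier results of these data known. Hnf4aos, Slc12a3, and the libraries left aside were chosen after values were seen. Alternatives were DESeq2 1.42.0, other scalings and filters, only the groups compared, replicate block, label series, and each library left out. P-values measure the spread between mice. Some genes of the lists are counted but not reported here by name. Intervals are the log2 fold change with a normal quantile times its SE on either side.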

Additional observations from a re-analysis of the deposited data

Results flagged for a closer look

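In 2 of 32 sets of a factor and a group, 1 kidney lay far from the others of its group, where chance gives about 1 in 20 sets. Pax8 in KW6002 replicate 5 was 135 CPM, and the nearest kidney of that group was 98.9 CPM. Esrrb in co-treated replicate 1 was 35.5 CPM, and the nearest was 50.6 CPM. That library also had the lowest principal cell marker sum of its group (554 CPM) and the highest fat marker sum (374 CPM), and their part in the Esrrb value was not tested.

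The KW6002 effect differed between mice with and without cisplatin for 4 factors by the interaction test in edgeR, with log2 differences of 0.59 for Hnf4a, 0.63 for Lhx1, 0.75 for Tfap2b, and -0.93 for Sox9. Of all genes, 42.7% passed that test. The Sox9 value did not pass within the 500s (-0.82, adjusted p = 0.209 by edgeR) or with any 1 of 7 libraries left out.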

How the results depend on the processing

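Values of single factors had the reported direction and side of the threshold in 1226 cases under alternatives, were weaker in 54, stronger in 10, and reversed in 22. When edgeR tested for changes beyond 1 log2 unit, it called 2 factors for cisplatin against vehicle, 0 for co-treatment against cisplatin, 1 for co-treatment against vehicle, and 0 for the interaction, and 2854, 675, 1145, and 446 of all genes. For KW6002 against vehicle, the 3 genes called became 99 with DESeq2, 0 with only these groups, 40 with the label series as covariate, 8 within the 500s, 0 when tested beyond 1 log2 unit, 1 with 3 libraries left aside (chosen after seeing the data), and 1 to 64 with a library left out, 64 without vehicle replicate 3.

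Library size scaling moved the median gene by 0.20 for cisplatin and 0.16 for co-treatment against vehicle. It gave 8157 higher and 4244 lower genes for cisplatin (5930 and 6155 with TMM), 7394 and 3525 for co-treatment against vehicle (5108 and 5114), 4091 and 5435 against cisplatin (4900 and 4664), and 3041 and 4107 for the interaction (3902 and 3410). It turned Pax2 under cisplatin to 0.07 and Hnf4a of co-treatment against vehicle to 0.14.

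Esrrb of co-treatment against vehicle was -0.32 with the label series, -0.49 within the 500s, -0.27 with 3 libraries aside, and -0.12 to 0.25 with a library left out. KW6002 against vehicle was -0.09 for Pax2 and -0.08 for Esrrb within the 500s, -0.17 for Esrrb with 3 aside, and -0.11 to 0.07 for Tfap2b with a library left out. Leaving out a library gave -0.04 to 0.007 for Hnf4a of co-treatment against vehicle and -0.17 to 0.02 for the Pax8 interaction, which was 0.10 with 3 aside.

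Ratios within the 500s were -0.38 (Hnf4g to Hnf4a, co-treatment against vehicle) and, for Pax2 to Pax8, -0.98 (cisplatin), 0.47 (co-treatment against cisplatin), and -0.28 (KW6002). With 3 aside they were -0.56, -0.93, 0.50, and -0.11. None passed. Within the 500s, the exact permutation p cannot go below 0.0952 for 2 against 5 or 0.0714 for 2 against 6. With 3 aside, 3 against 5 cannot go below 0.0357. Co-treatment against cisplatin has the same libraries within the 500s as over all. There only the adjustment over the other tests moved its exact permutation result, from an adjusted p of 0.0346 to 0.104. With a library left out, Pax2 to Pax8 was -0.87 to -0.68 for cisplatin, 0.40 to 0.55 for co-treatment against cisplatin, and -0.05 to 0.14 for KW6002, and Hnf4g to Hnf4a of co-treatment against cisplatin was -0.48 to -0.23. The cause was not tested.

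Replicate numbers were not taken to pair the mice, since not every same-number pair had a correlation over 0.1: 7 of 31 did (median 0.00846), beside 12 of 150 pairs of different numbers (median -0.00142), and 8 of 22 libraries correlated best with their own number. With a replicate block the call of no factor changed and KW6002 against vehicle called 1 gene. The blocked ratios were -0.57, -0.77, and 0.41, but with 5 pairs the exact permutation p cannot go below 0.0625, so none could pass.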
